A study of Mus musculus with 12 samples.

Results

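MHC class II molecules carry peptides from engulfed material to the surface of antigen-presenting cells, where CD4+ T cells read them. The α and β chains pair in the endoplasmic reticulum around the invariant chain, which blocks the groove and takes them to endosomes. There proteases trim the invariant chain to a stub, and the exchange factor DM swaps the stub for a peptide, a step that DO restrains. Nearly all of these genes are switched on by 1 co-activator, CIITA, which docks on factors bound to short boxes upstream of each gene. Macrophages hold class II at a modest level, and IFN-γ and, in mouse macrophages, IL-4 are known to raise it.

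The genes described here are 10 members of this pathway, chosen by symbol among the 14098 genes of the table, and every one of them was found. They are H2-Aa, H2-Ab1 and H2-Eb1 (the classical chains), Cd74 (the invariant chain), H2-DMa, H2-DMb1 and H2-DMb2 (DM), H2-Oa and H2-Ob (DO) and Ciita. No measured value entered the choice, and all 10 passed the filter on low values (1 TPM or more in 2 or more libraries) that left 11194 genes to test. TPM is a gene's number of transcripts out of every 1000000 in the library, with gene length taken into account, so levels can be compared between genes.

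Bone marrow-derived macrophages (BMDM) were grown in L929-conditioned medium from male and female C57Bl/6 mice of 8 to 10 weeks, WT or Camkk2-/- (KO), and embedded in a collagen-hyaluronic acid hydrogel. In each genotype the gel was left soft, left soft with IL-4 added, or stiffened by UV crosslinking 24 h after embedding, with 48 h of culture after that. There were 6 groups of 2 libraries, which the labels call biological replicates without saying which animals they came from, so the p-values measure only the spread between these libraries. The stiff gel also differed in its collagen content and in the photoinitiator and UV light, which cannot be told apart from stiffness here. Camkk2, the deleted gene, did not follow the labels in 3 of the 12 libraries. It was at 44.2 and 11.7 TPM in WT soft 1 and 2, 30.5 and 29.8 in WT IL-4, and 23.3 and 23.7 in WT stiff. In the KO groups it was at 46.6 and 11.5 TPM in soft, 11.5 and 8.54 in IL-4, and 37.7 and 10.0 in stiff. The libraries labelled WT soft 2, KO soft 1 and KO stiff 1 thus held the Camkk2 level of the other genotype, and the comparisons that rest on them are given with and without them. Whether the TPM values cover the deleted part of the gene was not tested. The library labelled WT stiff 1 stood apart from all others, its own partner included. The SD of its log2 difference from WT stiff 2 over 3553 genes was 0.534, against 0.143 to 0.262 between the 2 libraries of each other group. Over all other libraries its SD was 0.526 to 0.702, while further pairs from different treatments also reached 0.547 (KO soft 2 with WT IL-4 1). The closest pairs were WT stiff 2 with WT IL-4 2 (0.0987) and WT soft 2 with KO soft 2 (0.0992). WT stiff 1 also decides some values below.

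Macrophage markers were abundant in every library, with the sum over 8 markers between 23571 and 57980 TPM, of which Lyz2 alone held 19076 to 51543. Mertk, at 6.65 to 23.0 TPM, was the lowest. Markers of B cells, another class II-bearing cell, were low: Ms4a1 was listed at 0 in 8 and Pax5 in 11 of the 12 libraries, and Cd79a did not exceed 0.685 TPM. Among 10 markers of dendritic cells, Flt3, Zbtb46, Xcr1 and Clec9a did not exceed 1.53 TPM, while Itgax, Batf3 and Ccr7 moved with the treatments (below).

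In GRCm38, the genome of the mm10 build, 8 of the 10 genes lie together on chromosome 17. From left to right the GENCODE vM21 annotation places H2-Oa at chr17:34092340-34095234, H2-DMa at chr17:34119541-34139101, H2-DMb2 at chr17:34143307-34151555 and H2-DMb1 at chr17:34153072-34160230. H2-Ob follows at chr17:34238903-34254414, H2-Ab1 at chr17:34257689-34269419, H2-Aa at chr17:34282744-34287823 and H2-Eb1 at chr17:34305867-34316674. H2-Aa is read from the minus strand and the others from the plus strand. Ciita is on chromosome 16 (chr16:10480059-10528418, plus strand) and Cd74 lies on neither of these chromosomes. All are annotated as protein coding.

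The stretches just upstream of the start sites of class II genes hold the boxes on which CIITA acts. The 4 shown are those that held ATTGG on the gene's strand, fitted before the RefSeq start and overlapped no annotated exon. They come from an abundant pair, H2-Aa and H2-Eb1, and from 2 genes of low level, H2-Ob and H2-DMb2. RefSeq promoters (GRCm38.p6, 250 bases before to 50 after the start) were found for 7 of the 10 genes, with 2 entries for H2-DMa. Each stretch has 85 bases, lies outside every annotated exon and is written along the gene's own strand. Capitals mark ATTGG, the core of the Y box to which NF-Y binds, and ATGATGC, a form of the X2 box. Both motifs were chosen with these sequences in view.
H2-Aa (chr17:34287852-34287936, minus strand): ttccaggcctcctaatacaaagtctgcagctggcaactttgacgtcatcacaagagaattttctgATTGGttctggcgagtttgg
H2-Eb1 (chr17:34305743-34305827, plus strand): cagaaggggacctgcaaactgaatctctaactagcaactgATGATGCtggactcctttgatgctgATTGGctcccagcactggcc
H2-Ob (chr17:34238783-34238867, plus strand): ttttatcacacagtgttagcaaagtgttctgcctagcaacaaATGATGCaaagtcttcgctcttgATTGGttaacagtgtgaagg
H2-DMb2 (chr17:34145094-34145178, plus strand): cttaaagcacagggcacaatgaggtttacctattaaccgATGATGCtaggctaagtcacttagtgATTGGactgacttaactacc

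ATTGG began 48 bases before the start of H2-Aa, 59 before that of H2-Eb1, 57 before that of H2-Ob and 90 before that of H2-DMb2, each counted to the RefSeq start. That start of H2-DMb2 lies inside the longer span given above, so its stretch is within the annotated gene but outside its exons. On either strand, it occurred in 7 of the 8 member promoters and in 37.4% of all 32851 promoters of the table. ATGATGC occurred in 4 of the 8 member promoters, those of H2-DMb1, H2-DMb2, H2-Ob and H2-Eb1, and in 2.46% of all promoters. In the 3 of these shown it began 23 to 26 bases before ATTGG, and the motifs do not overlap. Other forms of the X2 box were not searched for. A promoter without ATGATGC, such as that of H2-Aa, is therefore not shown to lack the box. A match is a run of letters and no measure of binding, and H2-Ob at 0.381 to 1.98 TPM and H2-Eb1 at 1083 to 2341 TPM both hold the 2 motifs.

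The class II genes spanned a wide range of levels. Cd74 was the most abundant member in every library, at 10837 to 17743 TPM, and ranked 4 or 5 among all genes. H2-Aa followed at 2687 to 5558 TPM, H2-Ab1 at 2502 to 4658 and H2-Eb1 at 1083 to 2341. H2-DMb1 lay at 268 to 586 TPM, H2-DMa at 147 to 282 and Ciita at 27.9 to 76.1. These 7 kept that order in every library. H2-DMb2 (3.21 to 8.56 TPM), H2-Oa (0.629 to 3.83) and H2-Ob (0.381 to 1.98) stood far below, and H2-Oa and H2-Ob changed places between libraries. H2-DMb2 is a near-identical neighbour of H2-DMb1, and reads of the abundant copy could be assigned to the other, so its level is uncertain. Together the 10 genes took 1.84% to 3.09% of all transcripts. C57Bl/6 mice do not make the α chain that partners H2-Eb1, so its RNA here does not stand for I-E molecules on the cell surface.

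**Figure D1:**
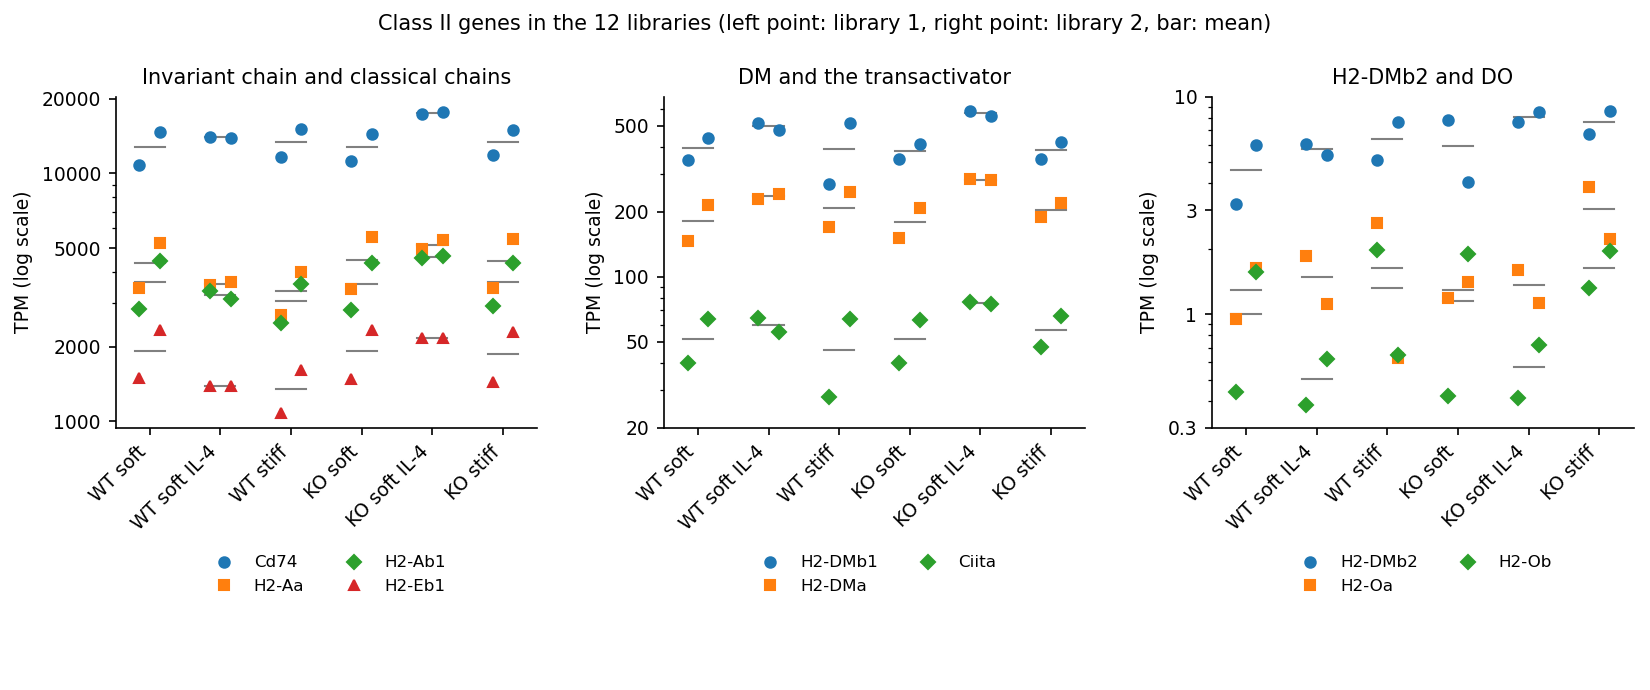
TPM of the 10 class II genes (y axis, log scale) in the 6 groups (x axis), with 1 point a library and a grey bar at the mean of the 2 libraries of a group. Cd74 lies on top at 10837 to 17743 TPM, and H2-DMb2, H2-Oa and H2-Ob stay under 10 TPM throughout.

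The 3 classical chains, which form the peptide-binding groove, moved in step from library to library. H2-Aa was at 3447 and 5253 TPM in WT soft, 3533 and 3647 in WT IL-4, and 2687 and 3997 in WT stiff. In the KO groups it was at 3418 and 5558 TPM in soft, 4948 and 5372 in IL-4, and 3452 and 5422 in stiff. Library 2 was thus well above library 1 in all groups but those with IL-4, where the 2 libraries lay close together. H2-Ab1 was at 2845 and 4440 TPM in WT soft, 3342 and 3117 in WT IL-4, 2502 and 3590 in WT stiff, 2823 and 4359 in KO soft, 4573 and 4658 in KO IL-4, and 2925 and 4347 in KO stiff. H2-Eb1 was at 1497 and 2335 TPM in WT soft, 1386 and 1389 in WT IL-4, 1083 and 1609 in WT stiff, 1485 and 2341 in KO soft, 2163 and 2166 in KO IL-4, and 1437 and 2286 in KO stiff. Across the 12 libraries, Pearson's r between H2-Aa and H2-Eb1 was 0.985 and that between H2-Aa and H2-Ab1 0.970. These points share their libraries and groups, so the values only describe how closely the chains ran together. H2-Eb1 stayed between 38.1% and 44.5% of the H2-Aa level in every library.

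The order of the libraries was not that of the labels. For each of the 3 chains, the 5 highest libraries were WT soft 2, KO soft 2, KO stiff 2 and both of KO IL-4, which were also the 5 with the lowest Camkk2. H2-Aa was at 4948 TPM in the lowest of these 5 and at 3997 in the next library down, WT stiff 2. The step for H2-Ab1 was from 4347 to 3590 TPM, and that for H2-Eb1 from 2163 to 1609. KO soft 1 and KO stiff 1, with Camkk2 at 46.6 and 37.7 TPM, lay with the WT libraries on all 3 chains, and WT soft 2, with Camkk2 at 11.7 TPM, lay with the KO libraries. In the soft and stiff groups the library number runs along with Camkk2 except in WT stiff, so Camkk2 level and whatever set libraries 1 and 2 apart cannot be told apart there. This order was noticed in the data and no test was made on it.

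**Figure D2:**
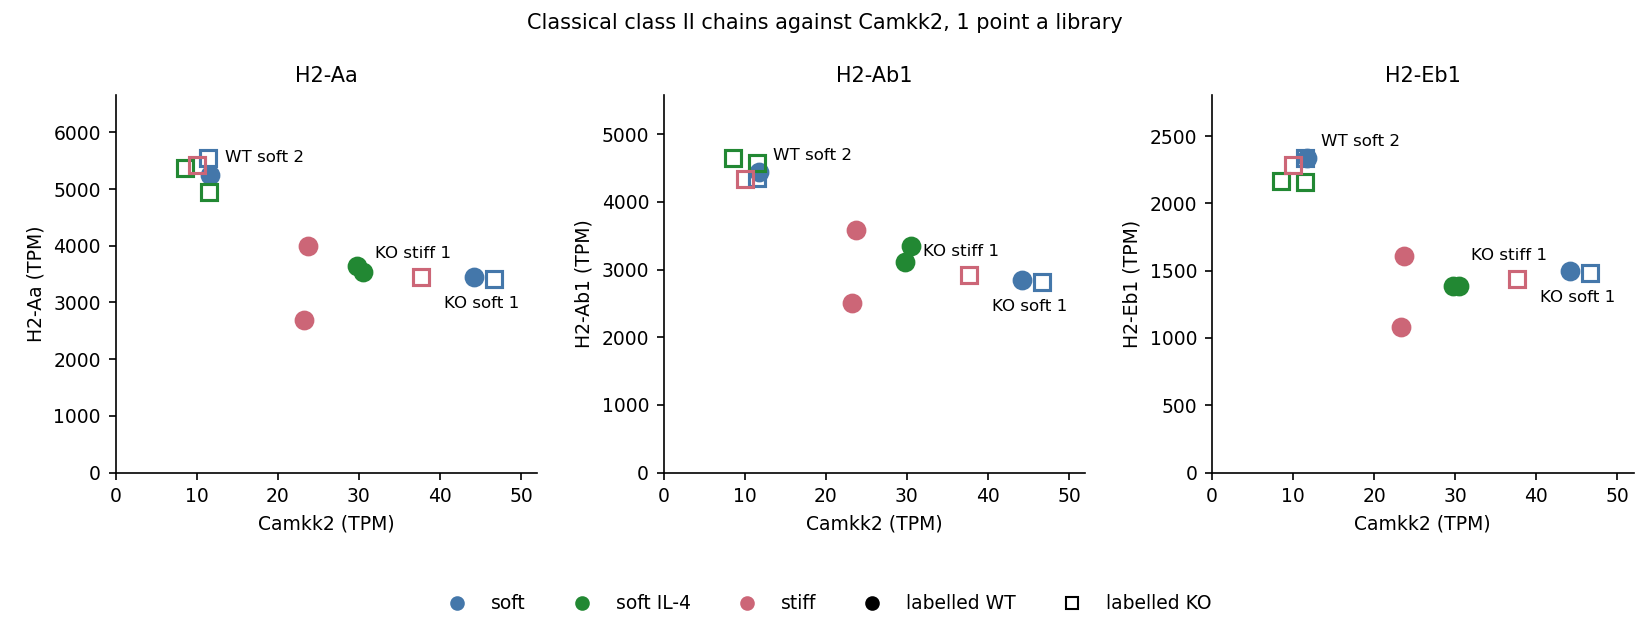
TPM of H2-Aa, H2-Ab1 and H2-Eb1 (y axes) against TPM of Camkk2 (x axis), 1 point a library, coloured by treatment, filled circles for libraries labelled WT and open squares for those labelled KO. The 5 libraries with Camkk2 between 8.54 and 11.7 TPM hold the 5 highest values of each chain, and the 3 libraries whose Camkk2 goes against the label are named.

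The genes whose level ran most like the classical chains were sought among all tested genes by Pearson's r with the mean standardised level of the 3 chains over the 12 libraries. The 5 nearest were Ifi44 (r = 0.978), Tmem163 (0.933), Sema4a (0.931), Ifi44l (0.926) and Zfp398 (0.920). Ifi44, an interferon-stimulated gene, spanned a far wider range than the chains, from 0.791 TPM in WT stiff 1 to 77.6 in KO soft 2, with 34.9 and 35.8 in KO IL-4 against 5.17 and 4.72 in WT IL-4. The 5 most opposite were Rplp0 (-0.995), Mcm6 (-0.974), Tmem165 (-0.971), Car9 (-0.927) and Rps3a1 (-0.922). Rplp0, a protein of the large ribosomal subunit, was at 984 to 1047 TPM in the 5 libraries where the chains were highest and at 1276 to 1674 TPM elsewhere. Car9, a carbonic anhydrase that hypoxia induces, was at 0.0347 to 0.391 TPM in those 5 libraries and at 3.02 to 5.46 elsewhere. Ifi44, Rplp0 and Car9 were picked for their r with the chains. Their split along the same libraries follows from that choice and is no separate result.

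The other members followed the chains less closely. Cd74 was at 10837 and 14654 TPM in WT soft, 14069 and 13924 in WT IL-4, 11628 and 15065 in WT stiff, 11204 and 14396 in KO soft, 17354 and 17743 in KO IL-4, and 11863 and 14929 in KO stiff. Its r with H2-Aa was 0.768, while with H2-DMa it was 0.952. H2-DMa, the α chain of DM, was at 147 and 214 TPM in WT soft, 230 and 241 in WT IL-4, 170 and 246 in WT stiff, 152 and 208 in KO soft, 282 and 279 in KO IL-4, and 190 and 220 in KO stiff. H2-DMb1, its β partner, was at 348 and 439 TPM in WT soft, 517 and 478 in WT IL-4, 268 and 515 in WT stiff, 350 and 413 in KO soft, 586 and 557 in KO IL-4, and 351 and 421 in KO stiff. All 4 IL-4 libraries were above all 4 soft libraries for both DM chains. Ciita was at 39.9 and 63.4 TPM in WT soft, 64.5 and 55.3 in WT IL-4, 27.9 and 64.0 in WT stiff, 39.9 and 62.9 in KO soft, 76.1 and 74.6 in KO IL-4, and 47.2 and 66.1 in KO stiff. Its soft and IL-4 libraries overlapped.

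The comparison of soft gel with and without IL-4 asks how the type 2 cytokine acts on the pathway. Averaged over both genotypes, the classical chains did not pass the test, and 1 member, H2-DMa, passed without a fold limit. By limma with Benjamini-Hochberg adjustment, 0 of the 10 members were called at an adjusted p under 0.05 and at least a 2-fold change, against 4.35% of all tested genes. Without the fold limit 1 of the 10, H2-DMa, was called, against 22.9% of all genes, so the members were not called more often than other genes. H2-DMa rose by 0.53 on the log2 scale of TPM + 1 (SE 0.157, 1.45-fold, limma with Benjamini-Hochberg adjustment, adjusted p = 0.0369, 4 libraries against 4). This call was lost without the 3 libraries whose Camkk2 goes against the label (0.55, adjusted p = 0.0971, by limma with the same adjustment), where 7.14% of all genes were still called. It was also lost on leaving out any 1 of 6 of the 8 libraries, all but WT soft 2 and KO soft 2 (adjusted p = 0.0908 to 0.122 by limma with the same adjustment), and with no filter on low values (0.0554). The value for H2-DMb1 was 0.47 (SE 0.182, adjusted p = 0.0984 by the same limma fit), and it passed at adjusted p = 0.0034 when limma was given only these 8 libraries, where 33.6% of all genes passed. The libraries of the groups did not overlap for 2 of the 10 members, H2-DMa and H2-DMb1, against 36.9% of all genes.

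Cd74 differed by 0.31 (95% interval -0.02 to 0.64) and Ciita by 0.41 (-0.18 to 1.00) on the log2 scale between soft IL-4 and soft. The values were -0.00 (-0.49 to 0.49) for H2-Aa, 0.13 (-0.33 to 0.59) for H2-Ab1 and -0.11 (-0.59 to 0.38) for H2-Eb1, intervals that leave room for changes of up to about 1.5-fold in either direction. H2-DMb2 (0.38, and 0.76 without the 3 libraries), H2-Oa (0.08) and H2-Ob (-0.37), all low, did not pass either. The median over the 10 members was 0.22, beside -0.05 over all tested genes, and 0.24 without the 3 libraries. In WT alone H2-DMa differed by 0.41 (SE 0.221) and in KO alone by 0.66 (SE 0.221), and neither passed in limma. Without the 3 libraries the order turned, with 0.67 in WT and 0.43 in KO. The KO value passed at any fold with only the libraries compared (adjusted p = 0.0380 by limma) and with a replicate block (0.0280). Counts of members with non-overlapping libraries were 3 of 10 in WT, against 61.3% of all genes, and 5 of 10 in KO, against 60.4%. In either genotype 0 of 10 were called at 2-fold, against 3.76% of all genes in WT and 3.65% in KO. The interaction of genotype with IL-4 was between -0.09 and 0.65 over the members, with adjusted p = 1.00 by limma for each. These values rest on the 3 libraries whose Camkk2 goes against the label: without them the range was -0.94 to 0.17 and the median turned from 0.28 to -0.13.

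The other members were also set against H2-Aa in the same library. H2-DMa was 3.75% to 4.43% of H2-Aa in the 4 soft libraries and 5.20% to 6.61% in the 4 IL-4 libraries. H2-DMb1 was 7.44% to 10.2% against 10.4% to 14.6%, and Ciita 1.13% to 1.21% against 1.39% to 1.83%. Cd74 was 259% to 328% of H2-Aa in soft and 330% to 398% with IL-4. H2-Ab1 was 78.4% to 84.5% against 85.5% to 94.6%. These 5 of the other 9 members had a higher ratio in every IL-4 library than in every soft library, against 3.96% of all genes, while as levels only the 2 DM genes were separated. In the stiff libraries they ranged over both, with H2-DMa at 6.33% and 6.16% of H2-Aa in WT stiff and 5.50% and 4.05% in KO stiff. The ratios were chosen with the levels known, and no test was made on them. Over the 12 libraries the 5 genes had an r with H2-Aa of 0.593 (H2-DMa) to 0.970 (H2-Ab1). A ratio to H2-Aa takes out spread that a gene shares with it and adds spread to an unrelated gene. The share of all genes is therefore no even yardstick for these members.

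**Figure D3:**
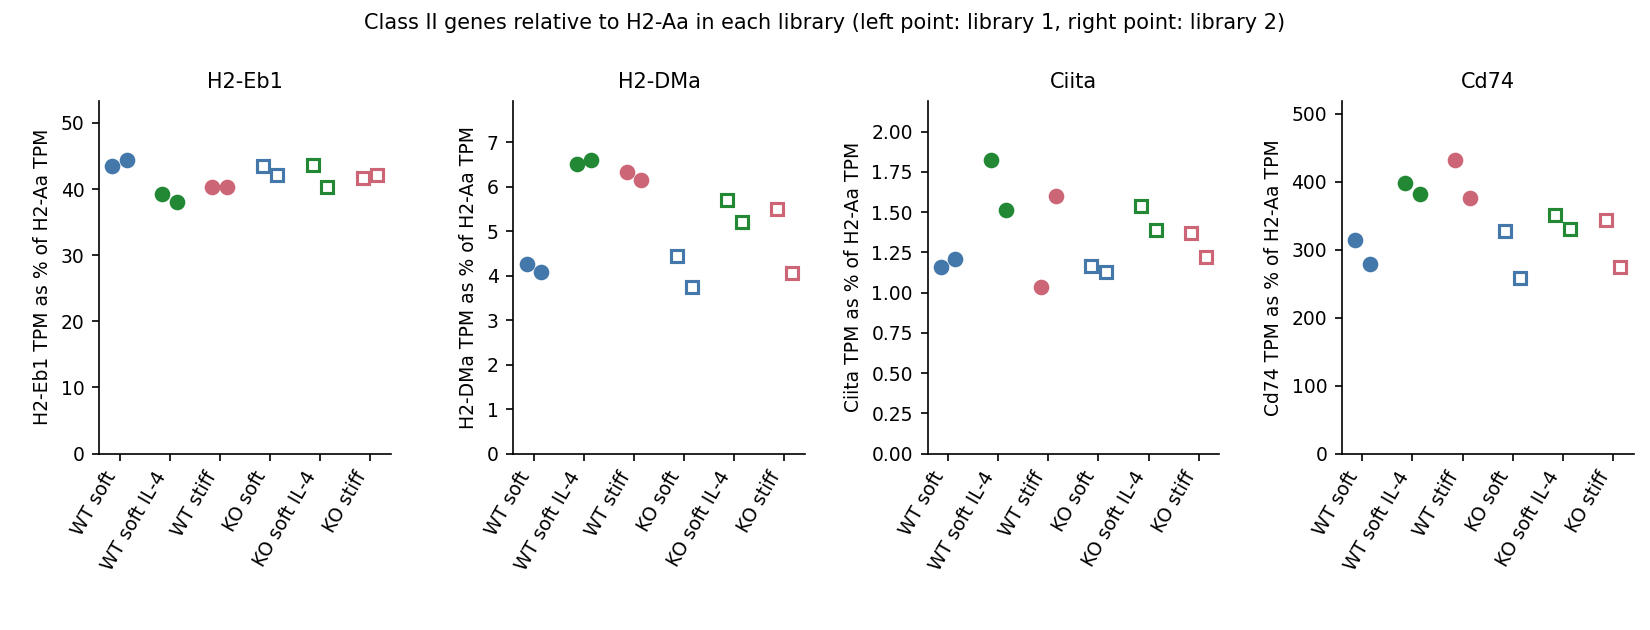
TPM of H2-Eb1, H2-DMa, Ciita and Cd74 as a percent of the TPM of H2-Aa (y axes) in the 6 groups (x axis), 1 point a library, circles WT and squares KO by label. H2-Eb1 stays at 38.1% to 44.5% in all libraries, while the other 3 are higher in every IL-4 library than in every soft library.

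The stiff gel was compared with the soft gel to ask whether stiffness shifts the pathway. Averaged over the genotypes, 0 of the 10 members were called, against 1.35% of all genes, and none had libraries that did not overlap, against 8.84% of all genes. The differences ran from -0.27 for H2-Eb1 to 0.44 for H2-Oa, and the median was 0.02 beside 0.00 over all genes. H2-Oa, at 0.629 to 3.83 TPM, passed at any fold without WT stiff 2 (0.73, adjusted p = 0.0423 by limma), where 20.5% of all genes passed. Without the 3 libraries the differences ran from -0.11 for H2-Eb1 to 0.85 for H2-DMb2, with a median of 0.12, and no member passed. The value was -0.19 (95% interval -0.69 to 0.30) for H2-Aa, 0.07 (-0.26 to 0.40) for Cd74 and 0.20 (-0.15 to 0.55) for H2-DMa. In WT alone, 0 of 10 were called, against 3.97% of all genes, and 0 of 10 had non-overlapping libraries, against 42.8%. The WT value for H2-DMb1, -0.07 (SE 0.257), turned to 0.40 without WT stiff 1 and to -0.54 without WT stiff 2. The last value passed at any fold (adjusted p = 0.0306 by limma) but not at 2-fold, with WT stiff 1 alone for its group and 27.4% of all genes passing. That for Ciita, -0.25 (SE 0.373), likewise turned to 0.34 without WT stiff 1. The median over the members in WT was -0.00, and 0.19 without the 3 libraries. In KO 0 of 10 were called, against 0.0447% of all genes. The median there was 0.11, and 0.04 without the 3 libraries. The interaction of genotype with stiffness called 0 of 10, against 0.67%. The median of that interaction turned from 0.22 to -0.04 without the 3 libraries. Within a genotype, the comparisons of IL-4 and of stiff with soft share their soft libraries.

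Stiff was also compared with IL-4 directly. In WT, 0 of 10 members and 0% of all genes were called, and 1 of 10 had non-overlapping libraries, against 29.3%. Ciita, at -0.49 (SE 0.373), was called without WT stiff 2 (-1.07, adjusted p = 0.0346 by limma), where WT stiff 1 stands alone for its group and 8.54% of all genes were called. In KO, 0 of 10 were called, against 1.61% of all genes, while 7 of 10 had non-overlapping libraries, against 57.6%. The median over the members in KO was -0.31, and -0.01 without the 3 libraries whose Camkk2 goes against the label. KO stiff 2 then stands alone for its group.

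The genotypes were compared to ask whether loss of CaMKK2 alters the class II genes. Under IL-4, where Camkk2 follows the labels in all 4 libraries, the classical chains and Cd74 were higher in KO. In the soft and stiff gels the chain differences were larger once the 3 libraries whose Camkk2 goes against the label were left out (below). Those libraries were left out by their Camkk2, and the chains were highest where Camkk2 was lowest. The larger differences therefore follow from the choice of libraries and are no separate evidence on genotype. In soft they set 1 KO library against 1 WT library. With IL-4, H2-Aa was 1.44 times, H2-Ab1 1.43 times, H2-Eb1 1.56 times and Cd74 1.25 times as high in KO as in WT. The libraries of the 2 genotypes did not overlap for 8 of the 10 members, all of them higher in KO, against 38.9% of all genes with non-overlapping libraries in either direction. The exceptions were H2-Oa and H2-Ob, the DO chains, at under 2 TPM. The 8 include H2-DMb2, whose level is uncertain. Several of the 8 ran together from library to library (r = 0.985 for H2-Aa with H2-Eb1, 0.952 for H2-DMa with Cd74). They are therefore not 8 separate observations, and the share of all genes is only a rough yardstick for them. The log2 differences were 0.64 for H2-Eb1 (SE 0.305, 95% interval -0.04 to 1.33), 0.52 for H2-Aa (SE 0.309), 0.52 for H2-Ab1 (SE 0.289), 0.33 for Cd74 (SE 0.208) and 0.33 for Ciita (SE 0.373). In the model of all 12 libraries, 0 of 10 members and 0% of all genes were called, with an adjusted p of 1.00 for each member in limma. At an unadjusted p under 0.05 the count was also 0 of 10, against 2.08% of all genes. That model takes its spread from all 6 groups. Without the 3 libraries in question the differences were the same, with SE 0.198 for H2-Eb1 and again an adjusted p of 1.00 for each member by limma.

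With only the 4 IL-4 libraries in limma, 4 of the 10 members were called without a fold limit, against 0.572% of all genes. They were H2-Eb1 (adjusted p = 0.0022), H2-Ab1 (0.0096), H2-Aa (0.0130) and Cd74 (0.0130), by Benjamini-Hochberg adjustment over the 11194 genes. At least a 2-fold change was reached by 0 of the 10. The 4 called genes ran together across the libraries, so they are not 4 separate observations. This fit rests on 2 libraries a group whose values lay close together. The exact permutation test of 2 against 2 cannot go below 33.3%, so the call depends on which libraries set the spread. In each genotype the titles of both IL-4 libraries carry the words Soft 1 before the IL-4 number. Whether these libraries share a preparation was not tested. Within the 4 libraries, H2-DMa was 1.19 times, H2-DMb1 1.15 times and Ciita 1.26 times as high in KO, and none of them passed in this fit.

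**Figure D4:**
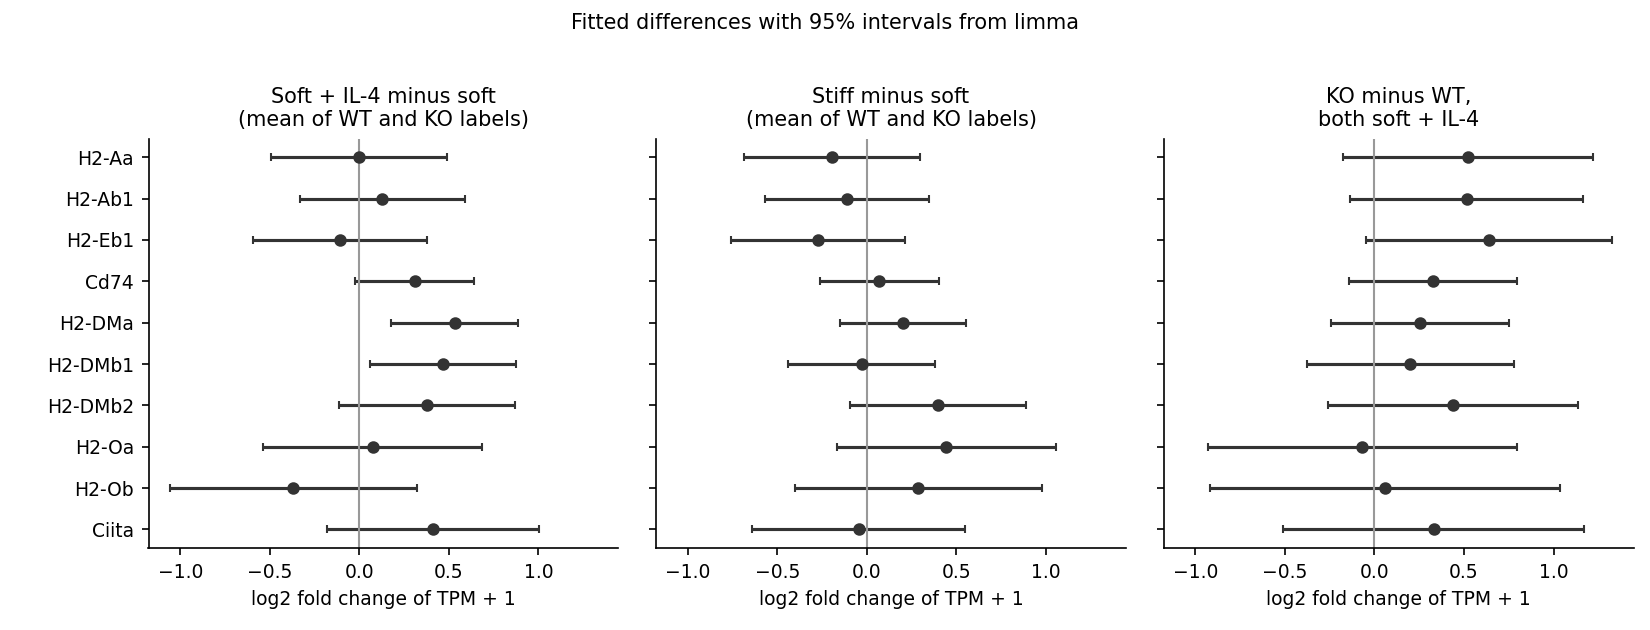
Fitted log2 fold change of TPM + 1 (x axis, with 95% intervals from limma over all 12 libraries) for the 10 members (y axis) in soft IL-4 against soft, stiff against soft, both averaged over genotypes, and KO against WT under IL-4. The intervals exclude 0 for H2-DMa and H2-DMb1 in the first panel, before adjustment over all genes, and for no member in the others.

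In the soft gel without IL-4, no member passed between the labelled genotypes. The differences lay between -0.04 for H2-DMb1 and 0.30 for H2-DMb2, with -0.00 for H2-Eb1 (SE 0.305), 0 of 10 members and 0% of all genes called by limma, and no member at an unadjusted p under 0.05, against 1.16% of all genes. No member had non-overlapping libraries, against 24.7%. Here 1 library of each group carries the Camkk2 level of the other genotype. Without the 3 such libraries, the KO library left, soft 2, exceeded the WT library left, soft 1, by 0.69 for H2-Aa (SE 0.301), 0.62 for H2-Ab1 (SE 0.279), 0.64 for H2-Eb1 (SE 0.280) and 0.64 for Ciita (SE 0.510), each with adjusted p = 1.00 by limma, in which the lone library is taken to vary like the other groups.

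In the stiff gel 0 of 10 members were called, against 1.98% of all genes, and none had non-overlapping libraries, against 39.1%. The values were 0.40 for H2-Aa (SE 0.309), 0.25 for H2-Ab1 (SE 0.289) and 0.46 for H2-Eb1 (SE 0.305). Without the 3 libraries they were 0.73, 0.54 and 0.79 (SE 0.243 for H2-Eb1), with adjusted p from 0.340 to 0.572 by limma. H2-DMb1 and Ciita, at 0.05 and 0.39, again depended on WT stiff 1. Without it they became -0.42 and -0.19, while without WT stiff 2 H2-DMb1 became 0.52 (adjusted p = 0.0395 by limma), where 24.9% of all genes passed at any fold. In bulk RNA, fewer cells that carry class II and less class II RNA in each cell cannot be told apart in any of these comparisons.

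The genes around the 10 members were read from lists. None of the 7 genes for the factors on the promoter boxes (Rfx5, Rfxap, Rfxank, Nfya, Nfyb, Nfyc and Creb1) was called with IL-4 or with the stiff gel averaged over genotypes. The shares of all genes called there were 4.35% and 1.35%. With IL-4, 2 of 13 genes that act upstream of Ciita were called as higher, against 1.87% of all genes, and 0 as lower, against 2.48%. They were Irf4, an interferon regulatory factor, by 2.59 (SE 0.0889, adjusted p = 6.63e-07) and Socs1, which restrains JAK-STAT signals, by 4.10 (SE 0.223, adjusted p = 4.16e-06, both by limma with Benjamini-Hochberg adjustment). The same 2 genes were called as higher in stiff, by 1.77 and 3.12, against 0.75% of all genes, from the same soft libraries. Without the fold limit, 3 of the 13 were called as higher with IL-4, against 9.84% of all genes, and 4 as lower, against 13.1%.

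Among 9 genes for endosomal proteases and their helpers, 0 were called at 2-fold with IL-4 averaged over genotypes, against 4.35% of all genes. At any fold 2 were called as higher, against 9.84% of all genes, and 2 as lower, against 13.1%. Ifi30, the thiol reductase that opens disulphide bonds of antigens, was at 303 and 387 TPM in WT soft, 572 and 534 in WT IL-4, 331 and 374 in KO soft, and 706 and 719 in KO IL-4. Ifi30 thus rose in both genotypes, but it reached the 2-fold call only in KO (1.02, adjusted p = 0.0064 by limma), against 3.65% of all genes. Without the 3 libraries its rise was 0.93 in KO and 0.90 averaged over genotypes. The call in KO was then lost, and not by the fold limit alone, with KO soft 2 standing alone for its group. Ctss, a protease that trims the invariant chain, was at 8042 to 10734 TPM over all libraries. Of 6 genes for turnover of class II at the surface, 0 were called at 2-fold with IL-4, against 4.35% of all genes. Among 7 ligands for T cells, 6 of them tested, 1 was called as higher with IL-4, against 1.87% of all genes. As lower, 2 were called, against 2.48%. Pdcd1lg2, which encodes the inhibitory ligand PD-L2, rose by 3.46, while Cd86 and Icosl, both costimulatory, fell by 1.16 and 1.60 (limma with Benjamini-Hochberg adjustment, adjusted p = 2.91e-06, 0.0048 and 0.000481).

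Markers of cell identity moved with the same comparisons. With IL-4, 4 of 8 macrophage markers were called as lower, against 2.48% of all genes. They were Fcgr1 by -2.42, Cd14 by -2.31, Lyz2 by -1.25 and Adgre1 at the fold limit. The summed level of the 8 was 51475 to 57980 TPM in soft against 23571 to 25557 in IL-4, mostly Lyz2. In stiff, 1 of the 8 was called as lower, Fcgr1 by -1.47, against 1.35% of all genes called in either direction. The sum was 23619 to 24708 TPM in WT stiff and 45977 to 48589 in KO stiff. Of the 10 dendritic cell markers, 6 passed the filter and 3 were called as higher with IL-4, against 1.87% of all genes. They were Itgax by 2.26, Batf3 by 2.44 and Ccr7 by 1.13. In stiff 2 were called as higher, Batf3 by 1.56 and Ccr7 by 1.15, against 0.75% of all genes. The summed level of the 10 was 146 to 180 TPM in soft, 767 to 777 in IL-4, and 255 to 762 in stiff. The 6 B cell markers used summed to 6.29 to 12.5 TPM, most of it from Cd22 (4.22 to 10.3 TPM), the 8 neutrophil markers to 10.7 to 26.6 and the 4 T cell markers to 0.589 to 2.34, of which 2, 2 and 1 were tested. Cd4, the tested T cell marker, was called with IL-4 (-1.03). Without the 3 libraries, Cd4 (-0.99) and Itgax (2.24) missed the call with IL-4 by limma, as did Batf3 (1.45) and Ccr7 (1.34) in stiff, while the other calls named for both comparisons held. The part of cell makeup in the class II values was not tested.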

How the data were processed

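The authors deposited 1 table of TPM values (length-adjusted transcript levels, each library scaled to a total of 1000000), named after Salmon. The submitters' processing notes list Trim Galore 0.6.7 and Salmon 1.4.0 with build mm10, while the study's methods describe STAR, featureCounts and DESeq, and the annotation is not given in the sources used here. The poly-A libraries were strand-specific. TPM keeps no read counts, so depth and counting error are unknown. Columns were matched to samples by their labels, and 0 were left unused.

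Genes that reached 1 TPM in 2 or more libraries (11194 of 14098) were tested on log2(TPM + 1), a scale that understates changes of low genes, with limma 3.58.1 in R 4.3.3. All 12 libraries entered 1 model with a mean per group and a variance trend, without covariates, with Benjamini-Hochberg adjustment over all tested genes in each of 13 comparisons. A call needed a 2-fold change or more together with an adjusted p below 0.05. By the naming rule, all 10 members, up to 4 called genes of each list, the 5 genes most like and the 5 most opposite to the classical chains, and Camkk2 were named. Ctss and marker genes at low level fall outside it and were added after their values were seen. The members and lists were chosen with earlier results of these data known. Alternatives were a pseudocount of 0.1, no filter, median-of-ratios scaling, only the libraries compared, a replicate block, other fold limits, and leaving out libraries. 1 cell type marker is not reported here.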

Additional observations from a re-analysis of the deposited data

How the results depend on the processing

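The members' counts of calls stayed at 0 of 10 in all 13 comparisons under a pseudocount of 0.1, no filter, median-of-ratios scaling, only the libraries compared, a log2 limit of 2 and the omission of the 3 libraries whose Camkk2 goes against the label. Without a fold limit 1 member was called in soft IL-4 against soft. Leaving out 1 library gave 0 to 1 in WT stiff against WT soft IL-4, where the call was Ciita and its difference ranged from -1.07 to 0.10. That fit, without WT stiff 2, called 956 of all genes.

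Without the 3 libraries, the differences of KO soft against WT soft turned to 0.25 for H2-DMb1, 0.62 for H2-Ab1, 0.64 for H2-Eb1 and 0.64 for Ciita. Leaving out 1 library at a time gave ranges across 0 for H2-DMb2 (-0.10 to 0.70), H2-Aa (-0.32 to 0.39), H2-Ab1 (-0.34 to 0.30) and H2-Eb1 (-0.33 to 0.32) in that comparison. The ranges were -0.54 to 0.40 for H2-DMb1 and -0.83 to 0.34 for Ciita in WT stiff against WT soft, and -0.42 to 0.52 and -0.19 to 0.98 in KO stiff against WT stiff. The cause was not tested.

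Library numbers were not taken as pairs, since the deviations of libraries 1 and 2 correlated by 0.283 to 0.314 among WT soft, KO soft and KO stiff but by -0.0526 to 0.0905 in other pairs of groups. With a replicate block the counts of called members remained at 0, and the H2-DMa value of KO soft IL-4 against KO soft, 0.66, reached adjusted p = 0.0280 by limma with Benjamini-Hochberg adjustment, as it did with only the libraries compared (0.0380), against 0.0990 otherwise.

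Over all genes, 444 were called in WT stiff against WT soft, with 0 to 1108 under the alternatives that keep the 2-fold limit, and 222 in KO stiff against WT stiff, with 0 to 1009, both highest without WT stiff 2. In soft IL-4 against soft, 487 genes were called and 363 to 625 under those alternatives, 2567 at any fold and 88 at a log2 limit of 2. With 2 libraries a group and no read counts, the 95% intervals given beside the values set the precision.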
